A study of Homo sapiens with 6 samples.

Results

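The heat shock chaperones examined here are 10 genes whose proteins fold, refold or hold other proteins in the cytosol and in mitochondria. They were taken by symbol from the deposited expression table, in which all 10 were found among 22925 genes. By their usual description, 6 are raised by stress (HSPA1A, HSPA1B, HSPH1, DNAJB1, HSP90AA1 and BAG3), 2 are the constitutive cytosolic forms (HSPA8 and HSP90AB1) and 2 form the mitochondrial chaperonin (HSPD1 and HSPE1). RNA came from HT-1080, an established human fibrosarcoma line. In the PhenDC3 group the cells received 20 μM PhenDC3, dissolved in DMSO at a final 1%, for 48 h. In the DMSO group the cells received 1% DMSO without the compound for the same 48 h. Each group had 3 libraries of poly(A) RNA, and the genotype was the same in both. PhenDC3 binds G quadruplexes, folded structures of guanine-rich nucleic acid, and the comparison asks which transcripts differ in abundance when it is present.

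Cytosolic HSP70 proteins bind unfolded stretches of other proteins in a cycle driven by ATP, with J proteins delivering the substrate and exchange factors releasing it, and HSP90 completes the folding of selected clients. In the heat shock response, unfolded protein frees heat shock factor 1 (HSF1), which binds repeated GAA units in the promoters of chaperone genes and raises their transcription. HSPD1 and HSPE1 form the folding chamber of the mitochondrial matrix, and their genes lie head to head and share a promoter region.

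The promoters of these genes were searched for the heat shock element, because it is the sequence through which HSF1 reaches them. RefSeq promoter windows on GRCh38.p14, running from 250 bases before to 50 bases after each start, were found for all 10 genes, 16 windows in all. A 2-unit element was defined as GAANNTTC or TTCNNGAA, and a 3-unit element as GAANNTTC followed at once by NNGAA, or TTCNNGAA followed at once by NNTTC (N is any base). Both strands were searched and overlaps allowed, so each 3-unit element also counts as 2-unit elements. A 2-unit element stood in at least 1 window of 7 of the 10 genes, and a 3-unit element in that of 4 (HSP90AA1, HSPA8, HSP90AB1 and HSPD1). Of all 35116 RefSeq windows, 13.5% held a 2-unit element and 0.490% a 3-unit one. By gene, the shares with at least 1 such window were 16.2% and 0.608% of 27305 genes. The windows of HSPH1, BAG3 and HSPE1 did not contain these letters. Only exact matches within the windows were counted. An element with a differing base, or one outside the windows, would be missed for any of the 10 genes. The HSPD1 stretch printed below, at chr2:197500061-197500090, ends before the HSPE1 window, which begins at chr2:197500129. Absence from the HSPE1 window is therefore not absence from the region that the 2 genes share. Stretches from the 7 matching genes are printed 5′ to 3′ on the strand of the gene, with the element in capitals. The HSPA1A stretch is at chr6:31815344-31815463 and the HSPA1B stretch at chr6:31827577-31827696, both on the plus strand. DNAJB1 is shown at chr19:14518421-14518540, HSP90AA1 at chr14:102087104-102087133 and HSPD1 at chr2:197500061-197500090, all on the minus strand. HSPA8 is shown at chr11:123062346-123062375 and chr11:123062171-123062200 on the minus strand, and HSP90AB1 at chr6:44247746-44247865 on the plus strand. The HSP90AA1, HSPA8 and HSPD1 stretches also fall within an exon of at least 1 annotated transcript of some gene.
HSPA1A: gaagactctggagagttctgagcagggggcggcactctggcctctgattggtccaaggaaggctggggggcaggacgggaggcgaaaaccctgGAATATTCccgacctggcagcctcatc
HSPA1B: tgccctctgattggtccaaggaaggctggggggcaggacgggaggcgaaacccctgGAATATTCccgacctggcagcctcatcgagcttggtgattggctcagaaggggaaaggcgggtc
DNAJB1: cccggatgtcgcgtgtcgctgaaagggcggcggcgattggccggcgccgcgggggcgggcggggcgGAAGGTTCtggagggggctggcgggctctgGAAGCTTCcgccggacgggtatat
HSP90AA1: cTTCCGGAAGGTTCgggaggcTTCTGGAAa
HSPA8, first: ggcgagcttGAAAGTTCCAGAAcgctgcgg
HSPA8, second: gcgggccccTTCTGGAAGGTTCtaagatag
HSP90AB1: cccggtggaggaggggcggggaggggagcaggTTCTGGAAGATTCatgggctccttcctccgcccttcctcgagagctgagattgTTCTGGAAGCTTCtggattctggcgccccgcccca
HSPD1: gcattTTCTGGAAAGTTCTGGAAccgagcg

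HSPA1A and HSPA1B carry the same GAATATTC with nearly the same surrounding bases. Over the 250 bases before their starts, 235 of 251 aligned columns (93.6%) were identical. A G quadruplex motif (4 runs of 3 or more G, loops of 1 to 7 bases, either strand) was present in a window of HSP90AA1, BAG3 and HSPD1, that is in 3 of the 10 genes, against 27.9% of the 27305 genes with a window. A match is a string of letters and says nothing about binding.

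The 10 genes did not move as one group. PhenDC3 libraries had more HSPA1A and DNAJB1 RNA and a little more HSPA1B RNA, and less RNA of HSP90AA1, of both constitutive members and of both mitochondrial members. HSPH1 and BAG3 did not pass the test. At an adjusted p under 0.05 (limma on log2 of the normalized count plus 1, Benjamini-Hochberg over 16482 genes), 3 members were higher and 5 lower, or 8 of 10. These counts are to be read against a background in which 59.6% of all genes tested were called, 29.2% higher and 30.4% lower. The 2 groups of libraries did not overlap for 8 of the 10 members, where they did not overlap for 64.1% of all genes tested. By class, 3 of 6 inducible members were higher and 1 lower, and all 4 constitutive and mitochondrial members were lower. The median log2 change was 0.18 over the inducible members, -0.40 over the constitutive ones and -0.78 over the mitochondrial ones, and -0.02 over all genes tested.

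**Figure D1:**
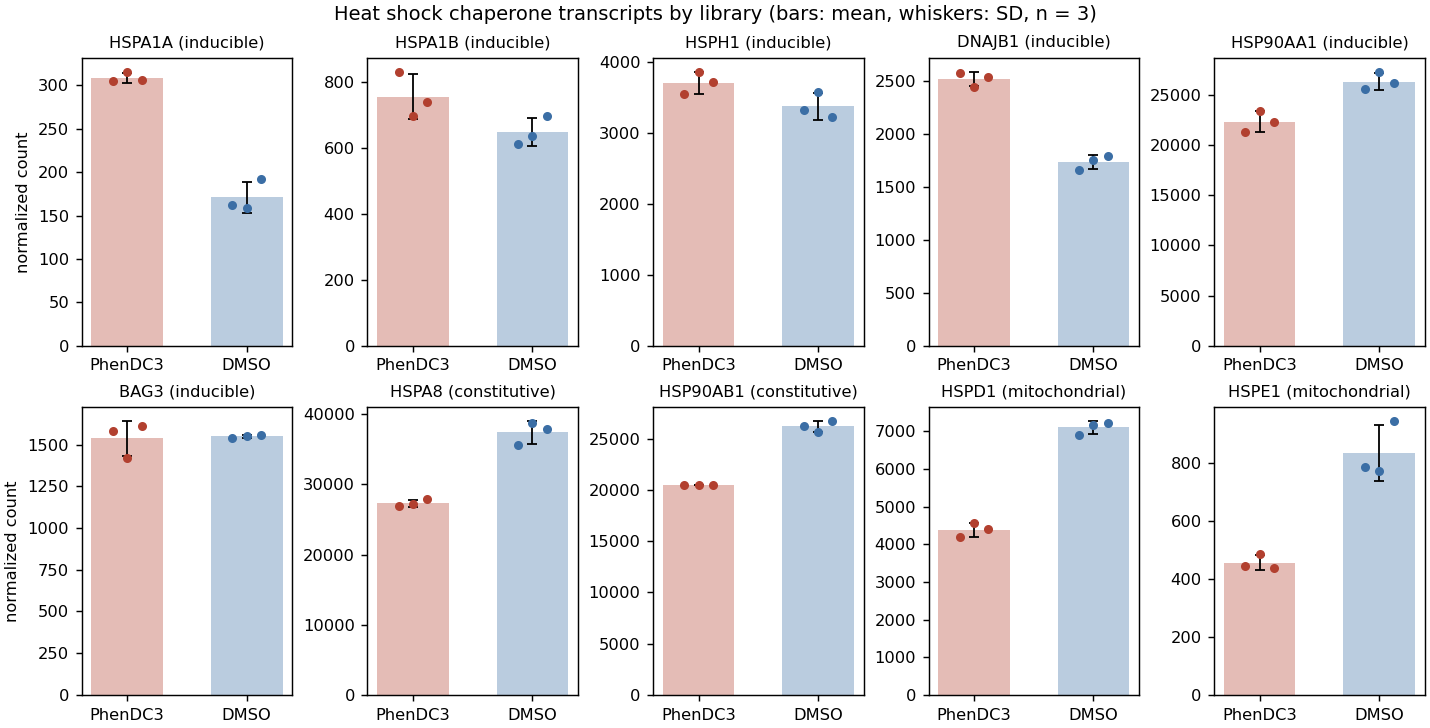
Normalized count of each of the 10 chaperone genes in each library (points), with the mean (bars) and SD (whiskers) of the 3 PhenDC3 libraries on the left and the 3 DMSO libraries on the right of each panel. HSPA1A and DNAJB1 stand clearly higher in PhenDC3, HSPA1B does so by a hair, and HSP90AA1, HSPA8, HSP90AB1, HSPD1 and HSPE1 stand lower.

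Whole reads recovered from the deposited values came to between 7371056 and 9386691 per PhenDC3 library and between 12574952 and 14292987 per DMSO library. RNA of the mitochondrial genome took 15.4 to 15.5% of reads in PhenDC3 libraries and 3.72 to 3.96% in DMSO libraries. DMSO replicate 3 differed from the other DMSO libraries more than these differed from each other. The labels do not say that the libraries come from separate cultures, and p-values may therefore measure technical spread only. Size factors give levels relative to the other transcripts, and fewer cells and less RNA per cell cannot be told apart. All 6 mesenchymal markers of the line were present, with summed normalized counts of 37895 to 38136 in PhenDC3 and 62163 to 63980.1 in DMSO. Of these, 5 were lower and 1 higher. Of the epithelial markers, EPCAM, CDH1 and KRT19 had no row, while KRT8 and CLDN4 summed to 1340 to 1503 in PhenDC3 and 1139 to 1397 in DMSO. CLDN4 was a small part of that sum, with means of 68.5 in PhenDC3 and 66.8 in DMSO. Of 3 blood markers, only CD68 had a row, at 7.87 to 19.4 in PhenDC3 and 4.64 to 7.78 in DMSO. Of 3 endothelial markers, EGFL7 and VWF summed to 235 to 317 in PhenDC3 and 227 to 302 in DMSO. Nearly all of that sum was EGFL7, since VWF had means of 1.71 in PhenDC3 and 0.259 in DMSO. The part of these markers and of depth in the chaperone results was not tested. Scaled by reads outside the mitochondrial genome, the 8 called members kept sign and call, and HSPH1 was called higher as well (limma, adjusted p = 0.0370). Without DMSO replicate 3, 3 members were higher and 5 lower, as with it, and the log2 change was 0.94 for HSPA1A and -0.44 for HSPA8.

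Among the stress-inducible members, HSPA1A (ENSG00000204389, chromosome 6), a heat-inducible cytosolic HSP70, changed most. Its normalized counts were 305, 316 and 306 in the PhenDC3 libraries, against 163, 159 and 192 in the DMSO libraries. Every PhenDC3 library lay well above every DMSO library. The means were 309 ± 5.82 in PhenDC3 and 171 ± 17.8 in DMSO (SD, n = 3 each), a ratio of 1.80 (limma, log2 change 0.85, SE 0.10, adjusted p = 3.5e-07). This is a moderate change among all genes tested, since 2030 genes (12.3%) had a higher log2 change. The value rests on 703 reads over the PhenDC3 libraries and 693 over the DMSO libraries, the fewest among the inducible members.

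HSPA1B (ENSG00000204388, chromosome 6) encodes nearly the same HSP70 protein from a neighbouring gene. It had 832, 698 and 740.0 normalized counts in PhenDC3, against 614, 636 and 696 in DMSO. The lowest PhenDC3 library and the highest DMSO library were almost level. The means were 757 ± 68.4 in PhenDC3 and 649 ± 42.7 in DMSO (SD, n = 3 each), a ratio of 1.17 (limma, log2 change 0.22, SE 0.08, adjusted p = 0.0239). With 1 library left out the call was lost in 4 of 6 cases, and the adjusted p in limma was 0.142 without PhenDC3 replicate 1, 0.0521 without PhenDC3 replicate 3, 0.102 without DMSO replicate 1 and 0.0734 without DMSO replicate 2. With libraries scaled by total reads the log2 change was 0.05 (limma, adjusted p = 0.567).

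The transcripts of this pair are hard to tell apart in short reads. Aligned end to end, the principal HSPA1A and HSPA1B transcripts were 88.2% identical, and 72.6% of the 50-base stretches of HSPA1A also occur in HSPA1B. The sources used here do not say how reads matching both were assigned, so the split between the genes is uncertain. A further annotated gene, AL671762.1, overlaps 36.5% of the exonic bases of HSPA1B on its own strand. It also holds 33.8% of the 50-base stretches of HSPA1A, and it had no row in the deposited table. How reads in those stretches were counted is not given, and summing the pair does not settle it. Summed, the pair had 1137, 1014 and 1046 normalized counts in PhenDC3, against 777, 795 and 888 in DMSO. The sums did not overlap and differed 1.30-fold (limma, log2 change 0.38, SE 0.07, adjusted p = 0.000186). HSPA1A made up 29.1% of the pair's counts in PhenDC3 and 20.9% in DMSO.

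DNAJB1 (ENSG00000132002, chromosome 19), the J protein that stimulates HSP70 in the cytosol and nucleus, had 2580.0, 2446 and 2540.1 normalized counts in PhenDC3, against 1662, 1758 and 1796 in DMSO. The groups were far apart relative to their spread. The means were 2522 ± 68.8 in PhenDC3 and 1738 ± 69.1 in DMSO (SD, n = 3 each), a ratio of 1.45 (limma, log2 change 0.54, SE 0.06, adjusted p = 2.54e-07). DNAJB1 has almost no sequence in common with other annotated transcripts, as 2.57% of its 50-base stretches recur elsewhere. On the opposite strand TECR, an enzyme of fatty acid elongation, overlaps 5.75% of its exonic bases. TECR itself was lower, at 312 ± 22.3 in PhenDC3 and 553 ± 4.91 in DMSO.

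HSPH1 (ENSG00000120694, chromosome 13), an HSP110 protein that exchanges nucleotide on HSP70, had 3543, 3851 and 3717 normalized counts in PhenDC3, against 3318, 3578 and 3217 in DMSO. DMSO replicate 2 lay above PhenDC3 replicate 1, so the groups overlapped. The ratio of means was 1.10, and the difference did not pass (limma, log2 change 0.14, SE 0.06, adjusted p = 0.0637). It passed without DMSO replicate 2 (limma, adjusted p = 0.0386) or without PhenDC3 replicate 1 (limma, adjusted p = 0.0485), and its log2 change turned to -0.03 under scaling by total reads (limma, adjusted p = 0.704).

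BAG3 (ENSG00000151929, chromosome 10), a co-chaperone that links HSP70 to selective autophagy, had 1582, 1419 and 1613 normalized counts in PhenDC3, against 1539, 1553 and 1558 in DMSO. The DMSO libraries all lay inside the PhenDC3 range. The means were 1538 ± 104 in PhenDC3 and 1550.0 ± 9.47 in DMSO (SD, n = 3 each; limma, log2 change -0.01, SE 0.07, adjusted p = 0.873). Scaled by total reads BAG3 was called lower (limma, log2 change -0.18, adjusted p = 0.0230), a shift equal to that of the median gene, which was -0.18 under that scaling. HSPH1 and BAG3 share no 50-base stretch with any other annotated transcript.

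HSP90AA1 (ENSG00000080824, chromosome 14), the stress-inducible cytosolic HSP90, was the inducible member that fell. It had 21269, 23353 and 22309 normalized counts in PhenDC3, against 25546, 27296 and 26134 in DMSO. No PhenDC3 library reached the lowest DMSO library. The ratio of means was 0.847 (limma, log2 change -0.24, SE 0.06, adjusted p = 0.0016). WDR20, on the opposite strand, overlaps 3.75% of the exonic bases of HSP90AA1 and was higher, at 376 in PhenDC3 and 264 in DMSO.

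Both constitutive members fell. HSPA8 (ENSG00000109971, chromosome 11), the housekeeping HSP70 of the cytosol, had 26894, 27283 and 27863 normalized counts in PhenDC3, against 35658, 38795 and 37906 in DMSO. The groups lay far apart, with 27347 ± 487 in PhenDC3 and 37453 ± 1617 in DMSO (SD, n = 3 each), a ratio of 0.730 (limma, log2 change -0.45, SE 0.06, adjusted p = 1.2e-06). HSPA8 was among the most abundant transcripts of the table, with 19 tested genes at a higher mean.

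HSP90AB1 (ENSG00000096384, chromosome 6), the constitutive cytosolic HSP90, had 20450.4, 20516 and 20482 normalized counts in PhenDC3, against 26244, 25644 and 26722 in DMSO. The PhenDC3 libraries were nearly level with each other and all below the DMSO libraries. The ratio of means was 0.782 (limma, log2 change -0.36, SE 0.06, adjusted p = 1.41e-05).

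Both mitochondrial members fell, with larger log2 changes than any of the cytosolic members that fell. HSPD1 (ENSG00000144381, chromosome 2), the HSP60 barrel of the chaperonin, had 4198, 4572 and 4395 normalized counts in PhenDC3, against 6897, 7175 and 7223 in DMSO. The means were 4388 ± 187 in PhenDC3 and 7098 ± 176 in DMSO (SD, n = 3 each), with no overlap and a ratio of 0.618 (limma, log2 change -0.69, SE 0.06, adjusted p = 2.75e-09). HSPE1 (ENSG00000115541, chromosome 2), the HSP10 lid of the chaperonin, had 443, 484 and 437 normalized counts in PhenDC3, against 783, 772 and 943 in DMSO. DMSO replicate 3 was well above the other DMSO libraries, and all 3 were above every PhenDC3 library. The ratio of means was 0.546 (limma, log2 change -0.87, SE 0.08, adjusted p = 2.86e-08), and without DMSO replicate 3 the log2 change was -0.78. Of all genes tested, 9.07% had a lower log2 change than HSPE1 and 13.5% a lower one than HSPD1. HSPD1 and HSPE1 share 281 exonic bases on opposite strands, which is 14.2% of HSPE1, and the readthrough gene HSPE1-MOB4 covers 9.71% of HSPE1 on its own strand. The sources used here do not say whether counting used the strand, so the reads in these stretches are of uncertain origin. MOB4, the gene at the far end of that readthrough, had 310.5 ± 7.96 normalized counts in PhenDC3 and 349 ± 4.73 in DMSO (limma, adjusted p = 0.0854).

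**Figure D2:**
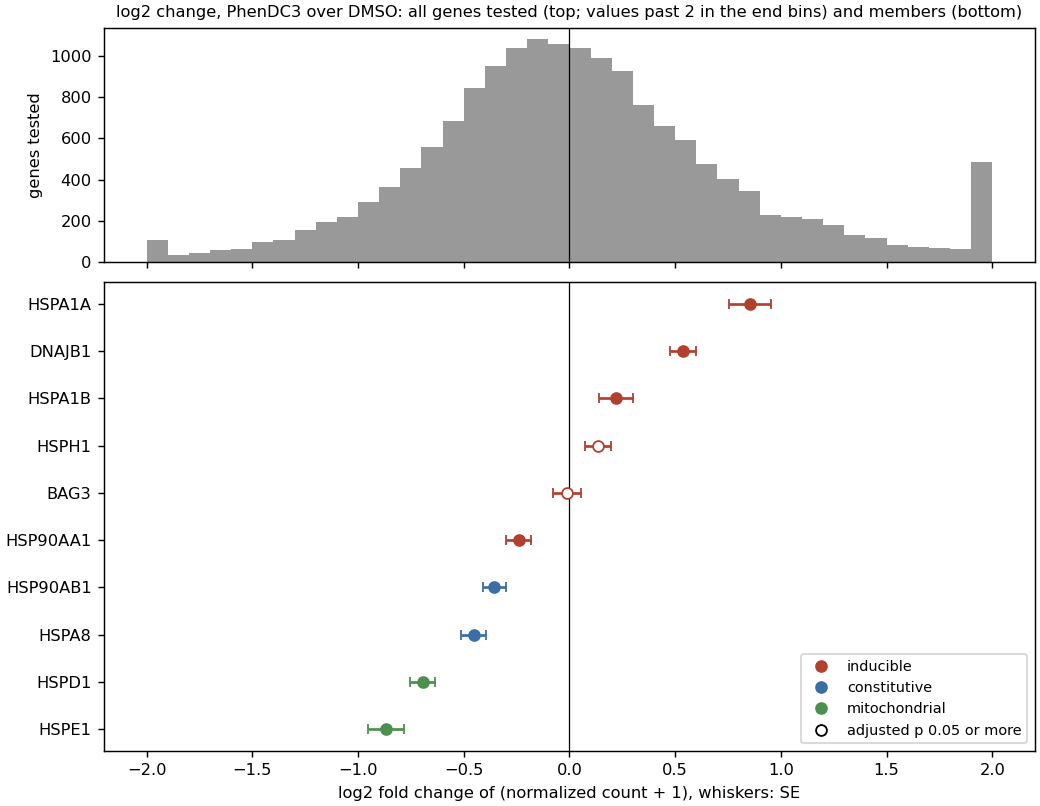
Log2 change, PhenDC3 over DMSO, of all 16482 genes tested (upper panel, number of genes per bin) and of the 10 chaperone genes (lower panel, points with SE as whiskers, filled where the adjusted p was under 0.05). The members run from 0.85 for HSPA1A to -0.87 for HSPE1. Of all genes tested, 12.3% had a higher log2 change than HSPA1A and 9.07% a lower one than HSPE1.

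The authors' deposited table gave the same signs, with log2 changes of 0.85 for HSPA1A, 0.54 for DNAJB1, -0.45 for HSPA8 and -0.88 for HSPE1. At its adjusted p under 0.05 the authors' deposited table called the same number of members, 8 of 10, where it called 39.0% of 21593 genes with an adjusted p. The adjusted p of HSPA1B was 0.0492 in the authors' deposited table, just inside that threshold. With edgeR on the recovered reads, 9 of the 10 were called, HSPH1 being the addition (edgeR quasi-likelihood test, adjusted p = 0.0442), where 63.0% of 14984 genes were called.

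Ratios of members within a library do not depend on the size factor, and 7 pairs were compared. With 3 libraries against 3, the smallest p an exact two-sided permutation test can give is 0.1, so no pair could pass 0.05. The inducible HSP70 against the constitutive one, HSPA1A over HSPA8, was 0.0114, 0.0116 and 0.0110 in PhenDC3, against 0.00456, 0.00411 and 0.00506 in DMSO. The groups were wide apart, with a 2.48-fold difference (log2 1.31, exact permutation p = 0.1, adjusted p = 0.117 over the pairs). Using HSPA1A and HSPA1B summed, which avoids their uncertain split, the difference was 1.78-fold. DNAJB1 over HSPA8 was 0.0959, 0.0896 and 0.0912 in PhenDC3, against 0.0466, 0.0453 and 0.0474 in DMSO, a 1.99-fold difference. The ratio to HSPA8 was also higher in every PhenDC3 library than in any DMSO library for HSPH1 (log2 difference 0.59) and BAG3 (log2 difference 0.44). HSPA8 itself was lower in PhenDC3, so a gene whose own level is the same in both groups also has a higher ratio to it. Of all genes tested, 76.9% had a higher log2 change than HSPA8, and the ratios of HSPH1 and BAG3, whose own levels did not pass, are to be read against that share.

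The HSP90 pair behaved otherwise. HSP90AA1 over HSP90AB1 was 1.04, 1.14 and 1.09 in PhenDC3, against 0.973, 1.06 and 0.978 in DMSO, and the groups overlapped (1.08-fold, exact permutation p = 0.2, adjusted p = 0.2). HSPD1 over HSPA8 was 0.156, 0.168 and 0.158 in PhenDC3, against 0.193, 0.185 and 0.191 in DMSO, lower in all PhenDC3 libraries. HSPE1 over HSPD1 was 0.105, 0.106 and 0.0994 in PhenDC3, against 0.114, 0.108 and 0.131 in DMSO. Those groups did not overlap, but by a small margin (log2 -0.18), and without DMSO replicate 3 the log2 difference was -0.09. Each of the 6 pairs without overlap had the exact permutation p of 0.1, adjusted to 0.117.

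**Figure D3:**
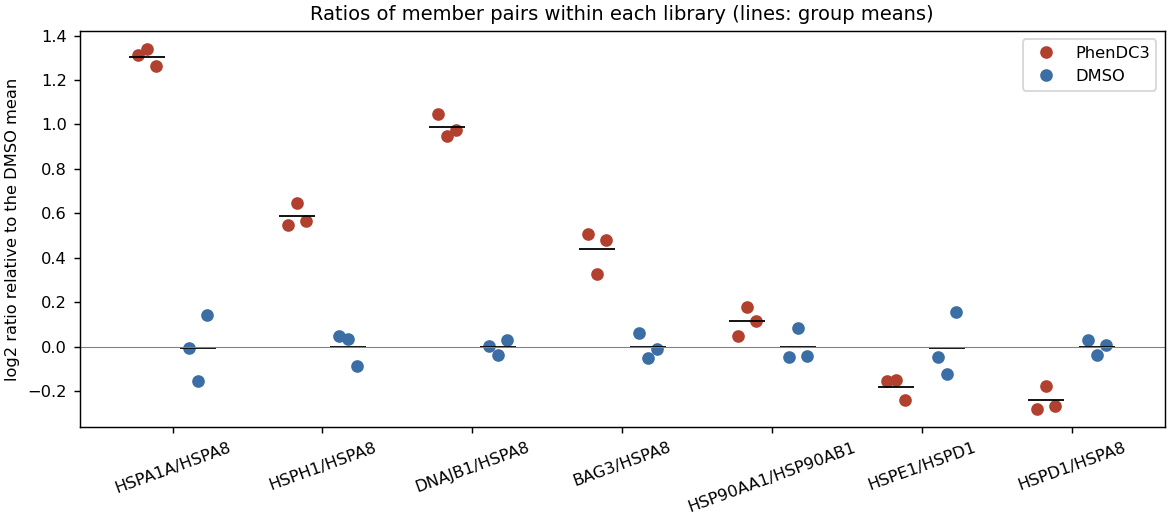
Log2 ratio of 7 pairs of chaperone genes within each library, relative to the DMSO mean of the pair, with PhenDC3 points left of DMSO points and lines at group means. The 4 ratios of inducible members to HSPA8 lie above the DMSO libraries, by 0.44 to 1.31, and HSP90AA1 over HSP90AB1 overlaps.

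To compare levels between genes, normalized counts were divided by the length of each principal transcript in kb. In PhenDC3 the order of means was HSPA8 (11103), HSP90AB1 (7660.0), HSP90AA1 (6603), HSPD1 (1788), DNAJB1 (1114), HSPH1 (714), BAG3 (598), HSPE1 (478), HSPA1B (300.2) and HSPA1A (124 per kb). In DMSO it was HSPA8 (15206), HSP90AB1 (9799), HSP90AA1 (7791), HSPD1 (2891), HSPE1 (877), DNAJB1 (768), HSPH1 (649), BAG3 (603), HSPA1B (257) and HSPA1A (69.0 per kb). HSPE1 stood below DNAJB1, HSPH1 and BAG3 in PhenDC3 and above them in DMSO, and the other 9 kept their order. Within each group the ranges of neighbours in the order did not overlap, though HSPE1 and DNAJB1 were close in DMSO, at a lowest 813 and a highest 793 per kb. HSPA1A had the lowest value per kb in both groups. How reads in stretches shared between genes were counted is not given. Of 50-base stretches, 72.6% of HSPA1A, 73.5% of HSPA1B and 52.9% of HSPE1 recur in other genes. For DNAJB1 the share was 2.57%, and HSPH1 and BAG3 have no such stretch. The places of HSPA1A, HSPA1B and HSPE1 in the order are therefore uncertain. As a share of all reads outside the mitochondrial genome, the 10 genes took 0.873, 0.916 and 0.908% in PhenDC3, against 1.09, 1.13 and 1.12% in DMSO. Within this, the 6 inducible members took 0.320 to 0.346% in PhenDC3 and 0.349 to 0.369% in DMSO, a sum made up mostly of HSP90AA1.

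**Figure D4:**
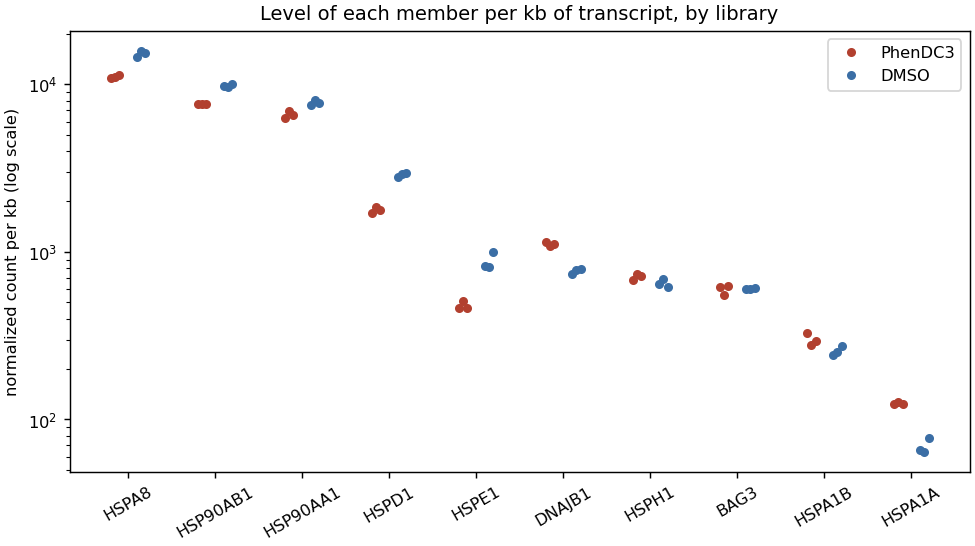
Normalized count per kb of principal transcript for each chaperone gene in each library, on a log axis, with PhenDC3 points left of DMSO points. HSPA8 is at the top and HSPA1A at the bottom in both groups, and HSPE1, at 478 per kb in PhenDC3, is below DNAJB1 there and above it in DMSO. The places of HSPA1A, HSPA1B and HSPE1 are uncertain, since much of their sequence recurs in other genes.

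Several members have processed pseudogene copies, which can take or lend reads. Counts of called copies are to be read against 30.4% lower and 29.2% higher among all genes tested. The 8 tested copies of HSPD1 were 6 lower and 1 higher, with a median log2 change of -0.76. Together they amounted to 13.3% of HSPD1 counts in PhenDC3 and 13.7% in DMSO. The copy that was higher, HSPD1P11, had 20.1 normalized counts in PhenDC3 and 11.8 in DMSO. It was not called in the authors' deposited table (adjusted p = 0.185). Neither were HSPD1P3 (0.154), HSPD1P6 (0.171) and HSPD1P2 (0.287), with group means of 8.80 to 19.4. The authors' deposited table did call HSPD1P1, HSPD1P4 and HSPD1P5. Of 6 tested copies of HSPA8, 5 were lower (median -0.37), the 2 copies of HSP90AB1 were both lower (median -0.39), and 1 of 2 tested copies of HSPE1 was lower. Among the lower HSPA8 copies, the authors' deposited table called HSPA8P1 and HSPA8P8. It did not call HSPA8P9 (adjusted p = 0.0804), HSPA8P5 (0.113) or HSPA8P7 (0.117). The 4 copies of HSP90AA1 were not called (median -0.14), the most abundant being HSP90AA2P at 1571 ± 107 in PhenDC3 and 1726 ± 72.0 in DMSO. Of the 2406 50-base stretches of HSPD1, 601 recur in other annotated transcripts, and so do 15.4% of those of HSPA8, 18.8% of HSP90AB1, 18.2% of HSP90AA1 and 52.9% of HSPE1. Adding the copies to their members left every call of a member in place.

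Of 72 further chaperone, co-chaperone and heat shock factor genes, 66 were tested, 16 were higher and 27 lower, with a median log2 change of -0.07. Of all genes tested, 29.2% were higher and 30.4% lower, with a median of -0.02. Whether the counts of the network as a whole depart from that background was not tested, and they are a description only. Among other HSP70 and HSP110 proteins, 6 of 9 were lower and 1 higher. HSPA2 was 23.8 in PhenDC3 and 60.8 in DMSO, HSPA4L, an HSP110 relative of HSPH1, was 0.710 of its DMSO level, and HSPA14, a ribosome-associated HSP70, 0.737. The 1 that was higher, HSPA12B, had few counts, 18.1 in PhenDC3 and 8.48 in DMSO, and was not called in the authors' deposited table (adjusted p = 0.0676). HSPA6, the strictly heat-induced HSP70, had very low counts, 14.7 in PhenDC3 (34 reads) and 9.48 in DMSO (38 reads). The groups did not overlap, as for 64.1% of all genes tested, but by a small margin, at a lowest 11.9 and a highest 11.7. The ratio of means was 1.55, and the difference did not pass (limma, adjusted p = 0.130).

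The largest rise among the partners of HSP70 was in DNAJB2, a J protein best known from neurons, at 573 ± 17.9 in PhenDC3 and 177 ± 9.57 in DMSO, a ratio of 3.24 (limma, log2 change 1.69, adjusted p = 1.87e-12). Of 8 tested cytosolic J proteins, 3 were higher and 2 lower, where 29.2% of all genes tested were higher and 30.4% lower. The higher ones were DNAJB2, DNAJA2 (by 0.24 on the log2 scale) and DNAJB5 (1.28-fold), and the lower ones DNAJC2 and DNAJB4. DNAJB2 alone of these 5 kept its call in every setting with a threshold of 0.05. DNAJA2 lost it under scaling by total reads (limma, log2 change 0.07, adjusted p = 0.336), and so did DNAJB5 (limma, adjusted p = 0.180), which also lost it without PhenDC3 replicate 1 (limma, adjusted p = 0.0670). DNAJC2 lost it without DMSO replicate 2 (limma, adjusted p = 0.0880) or PhenDC3 replicate 3 (0.0535), and DNAJB4 without DMSO replicate 1 (limma, adjusted p = 0.0680) or PhenDC3 replicate 3 (0.0570). DNAJA1, an abundant J protein, had 3804 in PhenDC3 and 3947 in DMSO and was not called. Exchange factors and BAG proteins divided, with BAG1 1.94-fold higher and BAG2 at 0.564 of its DMSO level. BAG4 and SIL1 were also lower, SIL1 not passing without DMSO replicate 3 (limma, adjusted p = 0.0545). BAG6 was higher by 1.12-fold only (limma, adjusted p = 0.0391), did not pass without PhenDC3 replicate 1 or 3 or DMSO replicate 1 or 2 (limma, adjusted p of 0.0718 to 0.225), and had a log2 change of -0.0085 under scaling by total reads. Of the small heat shock proteins, HSPB8, the partner of BAG3, was higher, at 69.1 in PhenDC3 and 51.7 in DMSO, a ratio of 1.34 (limma, adjusted p = 0.0245). Its call was lost without PhenDC3 replicate 1 (limma, adjusted p = 0.0731), DMSO replicate 1 (0.0657) or DMSO replicate 3 (0.0507). HSPB8 was not called in the authors' deposited table (adjusted p = 0.150). Neither were DNAJB4 (0.0997), DNAJB5 (0.0795), BAG6 (0.0531) and SIL1 (0.0525), while DNAJA2 (0.00384) and DNAJC2 (0.0480) were. HSPB1 and CRYAB were too low to test.

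Of 14 partners of HSP90, 6 fell and 1 rose, where 30.4% of all genes tested were lower and 29.2% higher. Whether the counts of this short list depart from that background was not tested. FKBP5, an immunophilin induced by glucocorticoids, had 264 ± 23.5 normalized counts in PhenDC3 and 674 ± 42.8 in DMSO, a ratio of 0.391 (limma, log2 change -1.35, adjusted p = 6.37e-11). PTGES3, the p23 co-chaperone that stabilizes client-bound HSP90, fell to 0.639 and CACYBP to 0.537 of the DMSO level. UNC45A, a myosin chaperone that works with HSP90, rose 1.39-fold.

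HSF1, the main regulator of the heat shock response, had 1021 ± 120 normalized counts in PhenDC3 and 825 ± 97.4 in DMSO (SD, n = 3 each), a ratio of 1.24 (limma, log2 change 0.31, adjusted p = 0.00641). That call was lost without PhenDC3 replicate 1 (limma, adjusted p = 0.0591) and under scaling by total reads (limma, adjusted p = 0.178). The groups overlapped for HSF1, with PhenDC3 replicate 2 at 895 and DMSO replicate 3 at 937. HSF2 was not called, and HSBP1, a small inhibitor of HSF1, fell to 0.758 of its DMSO level. Other genes known as heat shock factor targets were 3 higher and 4 lower of 11, near the 29.2% and 30.4% of all genes tested. Among those higher, ZFAND2A was at 1.83-fold and DEDD2 at 1.60-fold of the DMSO level. CACYBP, MRPL18 (0.634), SERPINH1 (0.877) and DNAJB4 (0.817) were lower, and UBB and CHORDC1 were not called. SERPINH1 lost its call without PhenDC3 replicate 2 (limma, adjusted p = 0.0666) or PhenDC3 replicate 3 (0.0875).

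Mitochondrial chaperones and proteases other than HSPD1 and HSPE1 were 4 higher and 7 lower of 15, with a median log2 change of -0.03, where all genes tested were 29.2% higher and 30.4% lower. TRAP1, the mitochondrial HSP90, had 731 in PhenDC3 and 1260 in DMSO, a ratio of 0.580 (limma, adjusted p = 2.15e-08). LONP1 and CLPP, matrix proteases, were at 0.838 and 0.778 of their DMSO levels. HSPA9, the mitochondrial HSP70 and the most abundant of the list, had 4416 in PhenDC3 and 5003 in DMSO, a smaller fall than that of HSPD1 in value; that difference was not tested. HSCB, a J protein of iron-sulfur cluster assembly, was 1.76-fold and CLPX, the unfoldase partner of CLPP, 1.27-fold higher. TIMM44, which anchors HSPA9 at the import channel, was 1.17-fold higher, but its call was lost without PhenDC3 replicate 1 or 3 or DMSO replicate 1 or 2 (limma, adjusted p of 0.0531 to 0.110) and under scaling by total reads (limma, log2 change 0.06, adjusted p = 0.510). TIMM44 was not called in the authors' deposited table either (adjusted p = 0.0502).

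**Figure D5:**
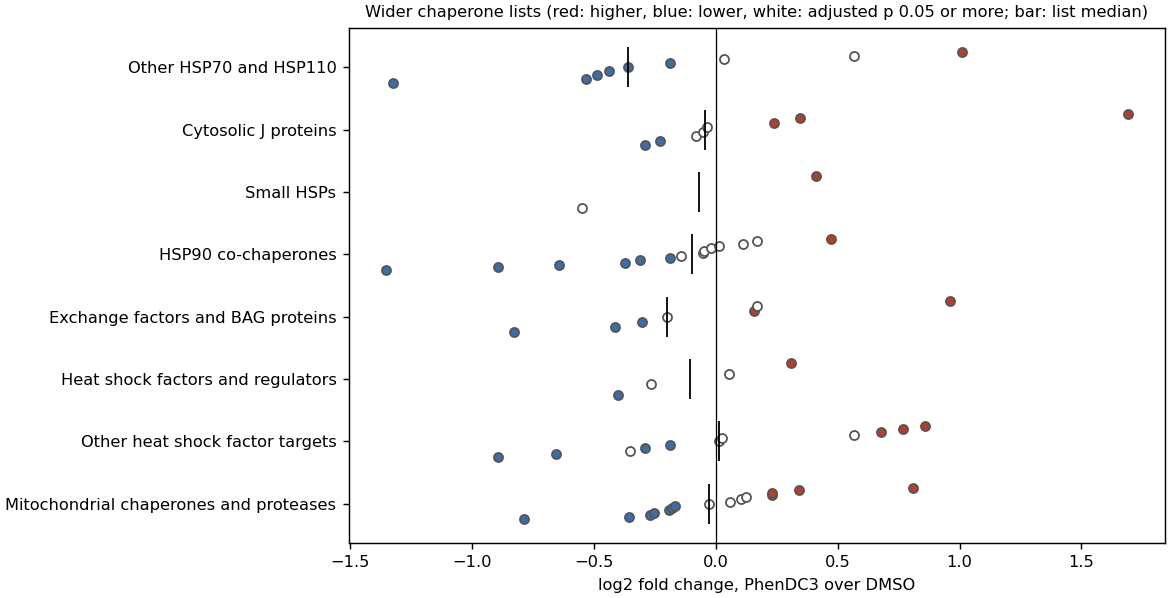
Log2 change, PhenDC3 over DMSO, of each tested gene in 8 wider lists, coloured by whether it was higher or lower at an adjusted p under 0.05, with a bar at each list median. Every list with more than 2 tested genes holds both rises and falls, from DNAJB2 at 1.69 to FKBP5 at -1.35.

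The genes whose log2 values over the 6 libraries lay closest to those of a member, by root mean square distance after centring, were found among 9306 genes with a mean of 100 or more. For HSPA1A they were FAM89B (161 in PhenDC3, 89.3 in DMSO), TATDN2 (552 in PhenDC3, 299 in DMSO) and SELENOS (614 in PhenDC3, 330.0 in DMSO), at distances of 0.0278, 0.0281 and 0.0407 on the log2 scale. For HSPA8 they were CCT5, a subunit of the cytosolic chaperonin (6330 in PhenDC3, 8562 in DMSO), VDAC3 and ATIC, at 0.0200 to 0.0272. For HSPD1 they were AMD1 (1165 in PhenDC3, 1901 in DMSO), RFC3 and CALD1, at 0.0200 to 0.0263. With 2 groups of 3 libraries such a distance mostly measures a like fold change.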

How the data were processed

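Per the labels' protocols, poly(A) RNA was made into libraries with a stranded kit. Per the submitters' processing notes, the build was hg19 and the tools, with no roles given, were STAR 2.7, TopHat2 2.0.11, featureCounts, DESeq2 1.18.1, Cuffdiff, Cufflinks 2.2.1 and CASAVA. The deposited signal per library is gene counts divided by a size factor, as the values show: all were whole multiples of 1 read (100%, tolerance 1e-06). The deposited log2 fold change and the deposited adjusted p-value (missing for 1332 genes) are the authors' own.

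Limma 3.58.1 (R 4.3.3) was run on log2(value + 1) with a variance trend and no replicate block, over genes with a mean of 5 or more; the pseudocount understates changes of low genes. Alternatives included edgeR 4.0.16 and DESeq2 1.42.0 on recovered reads. Limma was also run on simulated data with few changed genes and the same spread set for every gene. These data differ in both respects, so that run does not show that the calls made here are right. Pair ratios used exact two-sided permutation tests. GENCODE 29 gave transcript lengths, shared sequence and overlaps, and RefSeq (GRCh38.p14) promoters. No library was a duplicate of another, since counts differed by more than sampling noise within each group. The 10 genes, the lists and the tests were chosen with earlier results of these data known. Named genes were the 10 members, their copies and overlapping genes, up to 3 called genes per wider list and direction by smallest adjusted p, and the 3 nearest in profile to HSPA1A, HSPA8 and HSPD1. TECR, WDR20 and MOB4 follow from overlap; HSPA6, HSPB1, CRYAB, DNAJA1, HSF2, UBB, CHORDC1 and HSPA9 were named after their values were seen. A gene that this rule takes is not reported here.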

Additional observations from a re-analysis of the deposited data

How the results depend on the processing

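Leaving out 1 library at a time gave 8937 to 9646 called genes and 7 to 8 called members, of which 2 to 3 were higher and 5 lower. Over the other alternatives 8058 to 10582 genes and 7 to 9 members were called. HSPA1A, DNAJB1, HSP90AA1, HSPA8, HSP90AB1, HSPD1 and HSPE1 kept sign and call in every setting run, with a log2 change on leaving out a library of 0.80 to 0.94 for HSPA1A, -0.49 to -0.43 for HSPA8 and -0.92 to -0.78 for HSPE1. Scaling by total reads, which moved the median gene to -0.18, gave 3573 genes higher and 6622 lower, against 4806 and 5012 with the authors' size factors. The wider lists, 43 called (16 higher, 27 lower), had 33 to 42 called on leaving out a library; the number higher was 10 with DESeq2 and in the authors' deposited table and 9 under scaling by total reads, and at an adjusted p under 0.01 the calls were 28 in all and 17 lower. BAG6 turned to -0.0085 under scaling by total reads. The cause of these differences was not tested. Same-numbered libraries showed little shared deviation (correlations of 0.00788, 0.0712 and 0.0270 over genes), and the replicate numbers were not treated as a pairing. The labels do not say whether same-numbered libraries were handled together, and correlations over genes from so few libraries cannot exclude it. With a replicate block 10155 genes were called, against 9818 without it. The block gave 9 called members, HSPH1 being the addition (limma, adjusted p = 0.0496). Taking HSPA1A and HSPA1B summed in place of HSPA1A moved the log2 change to 0.38.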

Other observations

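HSF5, a heat shock factor of the germ line that was in none of the lists and was noticed after values were seen, had 53 reads in the PhenDC3 libraries (32.0, 20.8 and 15.7 normalized counts) and 0 reads in the DMSO libraries. HSPA5, the HSP70 of the endoplasmic reticulum, also named after its values were seen, had 7572 ± 116 normalized counts in PhenDC3 and 11268 ± 275 in DMSO (SD, n = 3 each), a ratio of 0.672 (limma, log2 change -0.57, adjusted p = 2.32e-08).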
